A study of Homo sapiens with 43 samples.

Results

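The genes described here are 10 genes of chromatin, DNA methylation, cohesin, metabolism and the nucleolus that are recurrently mutated in myelodysplastic syndromes and acute myeloid leukaemia: ASXL1, TET2, DNMT3A, EZH2, STAG2, IDH1, IDH2, PHF6, NPM1 and KMT2A. They were chosen by name, as a list, and all 10 were found among the 58347 genes of the RNA count table. All 10 passed the filter on low counts, which kept 21300 genes. The labels name no change to any of them, and the values are their RNA levels in cells in which a splicing factor was changed.

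The cells were HEL, a human erythroleukaemia cell line, stably transduced to express U2AF1 as the S34F mutant, the Q157R mutant or the wild type (WT). Doxycycline, 1 µg/ml over 48 hours, switched the added gene on, and uninduced cells of each line were sequenced beside them. RNA-seq after depletion of ribosomal RNA gave 2 libraries each of induced S34F, induced Q157R and induced WT cells, 1 each of uninduced S34F and uninduced Q157R cells, and 2 of uninduced WT cells. The WT line carries the added gene and received doxycycline too, so each mutant is compared with added WT protein, and the labels name no change to the cells' own U2AF1 genes. eCLIP, which sequences RNA crosslinked to a precipitated protein, was done for FLAG-tagged U2AF1 and for U2AF2 in induced WT cells only. Fractionated eCLIP (freCLIP) of U2AF1 was done in induced S34F, Q157R and WT cells, with a light gel fraction of 37 to 65 kD and a heavy one of 65 to 110 kD. The labels name the numbered libraries biological replicates without saying that they came from separate cultures, so the p-values below measure the spread between these libraries, which may be technical.

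U2AF1 and U2AF2 form the heterodimer that marks the end of an intron: U2AF2 binds the pyrimidine tract and U2AF1 the AG dinucleotide next to the first base of the exon. Mutations of U2AF1 at S34 and Q157 occur in the same diseases as mutations of the 10 genes. DNMT3A writes and TET2 removes cytosine methylation. IDH1 and IDH2 make the 2-oxoglutarate that TET2 needs, and their leukaemia mutants make 2-hydroxyglutarate, which inhibits it. EZH2 is the histone H3 lysine 27 methyltransferase of Polycomb repressive complex 2, ASXL1 is a cofactor of the BAP1 histone deubiquitinase, and KMT2A is a histone H3 lysine 4 methyltransferase. STAG2 is a subunit of the cohesin ring, NPM1 a nucleolar histone chaperone, and PHF6 a nuclear zinc finger protein that binds the NuRD complex.

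The first base of each exon is the base beside the AG that U2AF1 contacts. The annotation of GENCODE 29, on GRCh38, holds 169 exons after an intron in 1 transcript each of the 10 genes. Of these, 47.93% begin with G and 24.85% with A, against 48.98% and 25.69% of 184814 such exons in the 18488 protein-coding genes. The 10 genes range from PHF6, in which 1 of 9 exons begins with G and 4 of 9 with A, to DNMT3A, in which 14 of 22 begin with G. The first 12 bases of the exons of TET2, the gene with the most crosslinked reads below, and of PHF6, the gene with the fewest G, are shown with the first base in capitals, as a view of the sequence that this binding site meets. The intron side of these sites was not used here, and counts per gene hold no splicing of single exons.
TET2 exon 2, chr4:105190360-105190486, strand +: Gctggcaaacat
TET2 exon 3, chr4:105233897-105237351, strand +: Aattcaactaga
TET2 exon 4, chr4:105241339-105241429, strand +: Agcaaattattg
TET2 exon 5, chr4:105242834-105242927, strand +: Gtttggacagaa
TET2 exon 6, chr4:105243570-105243778, strand +: Gtggttcgcaga
TET2 exon 7, chr4:105259619-105259769, strand +: Gagaacttgcgc
TET2 exon 8, chr4:105261759-105261848, strand +: Gaagagaaactg
TET2 exon 9, chr4:105269610-105269747, strand +: Attgaatatgaa
TET2 exon 10, chr4:105272564-105272918, strand +: Gtatgcactctc
TET2 exon 11, chr4:105275048-105279816, strand +: Aacttttgcgac
PHF6 exon 2, chrX:134377572-134377755, strand +: Catttcttgaga
PHF6 exon 3, chrX:134378005-134378106, strand +: Ctcttttcatct
PHF6 exon 4, chrX:134393501-134393634, strand +: Atgtgttctttg
PHF6 exon 5, chrX:134393909-134393952, strand +: Ggtctattgccg
PHF6 exon 6, chrX:134413491-134413657, strand +: Ctgatttagaag
PHF6 exon 7, chrX:134413823-134413966, strand +: Agagataggtct
PHF6 exon 8, chrX:134415016-134415120, strand +: Ttgttttcttct
PHF6 exon 9, chrX:134417169-134417302, strand +: Aaatgtacactt
PHF6 exon 10, chrX:134425201-134428789, strand +: Actatactgtaa

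Gene-assigned counts ran to 22392303 to 40370092 per RNA library, so each of the 10 genes had at least 1010 counts in every library, and NPM1 at least 28385. U2AF1 itself, which shares reads with its near-identical copy U2AF1L5, had 11 to 21.5 CPM (counts scaled to the size of the library) in the 6 induced libraries and 12.6 to 22.1 CPM in the 4 uninduced ones, so these counts do not check the induction. Of 8 erythroid markers, 7 averaged at least 1 CPM; the transferrin receptor gene TFRC led with a mean of 601 CPM, and embryonic globin HBZ had 0.258 to 1.24 CPM. Reads of the no-feature row, which were assigned to no gene, made up 33.5% and 33.7% of the reads in the induced S34F libraries. They made up 22.7% in both induced WT libraries. Whether this row includes reads in introns was not given in the sources used here. With protein-coding genes alone used for scaling and testing, S34F values over WT moved up by a median of 0.14 on the log2 scale. Summed monocyte and granulocyte markers, mostly lysozyme LYZ, stood at 51.5 to 54.0 CPM in induced S34F cells and 36.6 to 46.9 CPM in induced WT cells, while summed erythroid markers overlapped, at 850 to 1140 CPM in induced S34F and 1028 to 1406 CPM in induced WT cells. Summed megakaryocyte markers, led by thrombospondin THBS1, stood at 2510 to 3086 CPM in induced S34F cells and 3559 to 4446 CPM in induced WT cells, so that all S34F sums were below WT. THBS1 alone overlapped, at 2293 and 1302 CPM in induced S34F and 3167 and 1342 CPM in induced WT cells. The part of these shifts in the results below was not tested, and in bulk RNA fewer cells of a type and less RNA per cell cannot be told apart.

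Per length (RPKM, which is CPM divided by the merged exon length in kilobases), the 10 genes spanned a wide range in these cells. NPM1 had a median of 339 RPKM over the 10 RNA libraries (range 292 to 464) and stood above all the others in every library. IDH2 followed with a median of 59.1 RPKM (35.4 to 117), and its lowest library was above the highest of STAG2, which had a median of 27.6 RPKM (25 to 34.1). EZH2 (median 21.9 RPKM), ASXL1 (18.9 RPKM), IDH1 (15.5 RPKM) and KMT2A (14.1 RPKM) overlapped their neighbours in this order. PHF6 (median 9.38 RPKM, 7.70 to 10.2) lay below every KMT2A library and overlapped DNMT3A (median 8.94 RPKM, 7.44 to 10.5). TET2 was lowest, with a median of 5.20 RPKM (4.38 to 8.79), and overlapped DNMT3A. With the longest transcript as the length, IDH2 (median 61.7 RPKM, 36.9 to 123) and STAG2 (37.3 RPKM, 33.8 to 46.1) overlapped and NPM1 had a median of 739 RPKM. The order between STAG2 and PHF6 then ran ASXL1, IDH1, EZH2 and KMT2A.

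The genes differed in how much they varied. The highest library of PHF6 was 1.32-fold the lowest, of STAG2 1.36-fold and of DNMT3A 1.41-fold, against a median of 2.06-fold over 13323 protein-coding genes with counts in every library. IDH1 varied 5.63-fold, more than 89.5% of those genes, IDH2 3.32-fold and EZH2 3.01-fold. TET2, at 2.01-fold, was near the median.

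**Figure D1:**
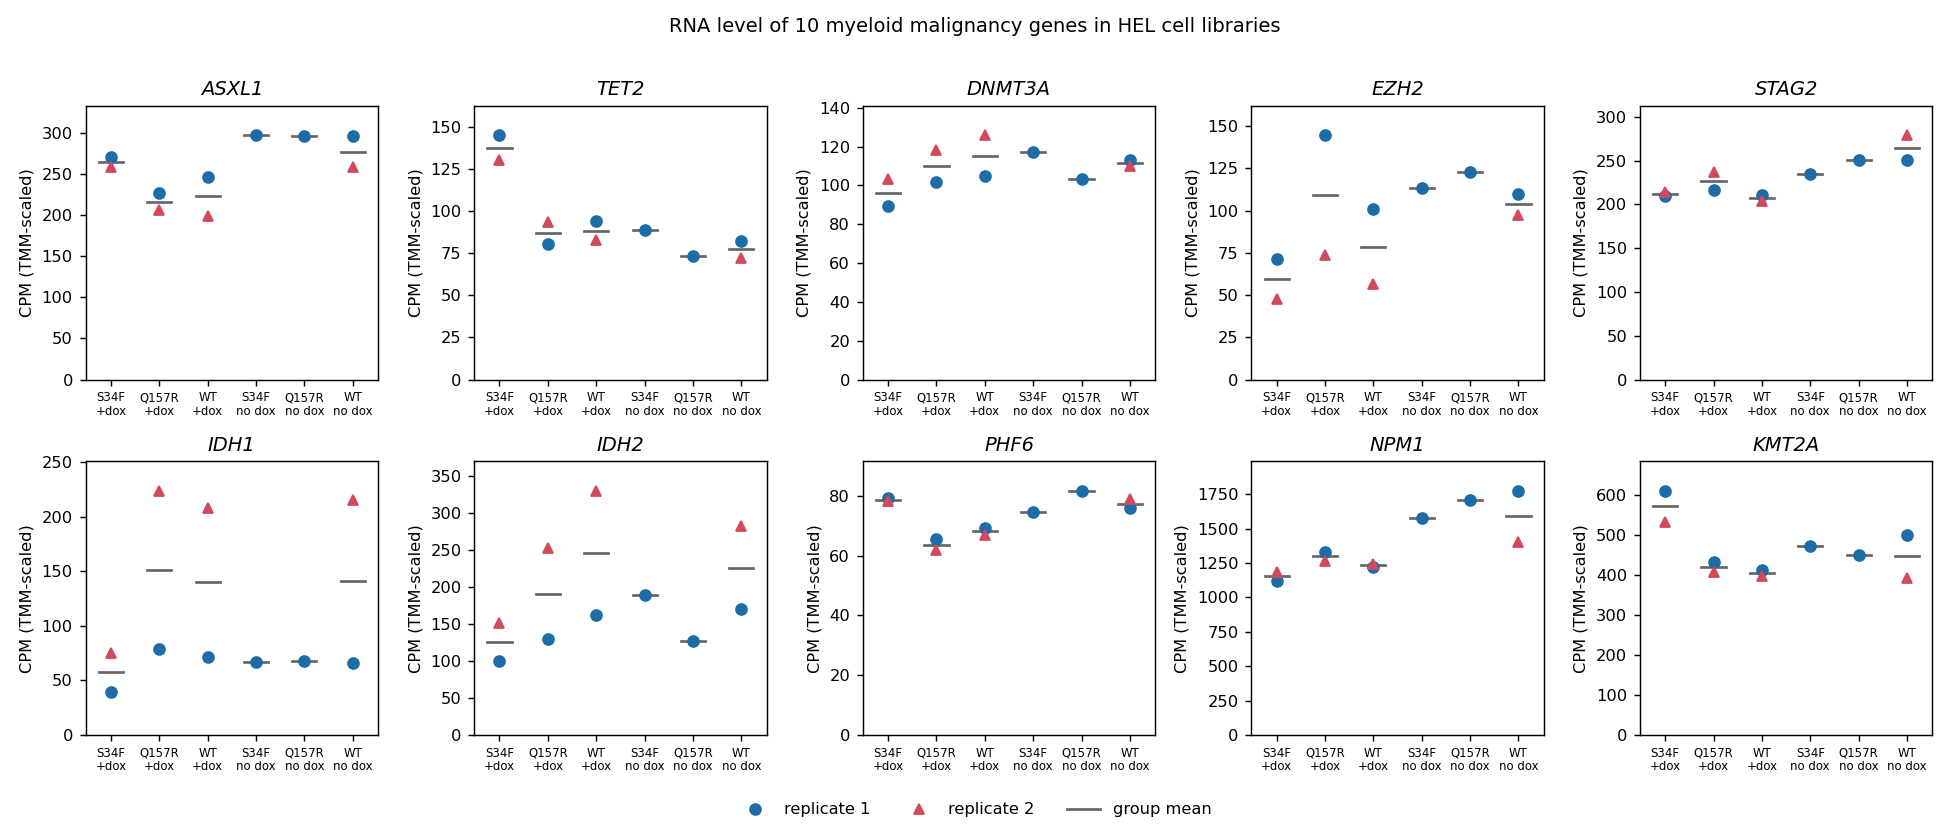
RNA level of each of the 10 genes in CPM (linear axes from 0) in the 10 RNA libraries by U2AF1 line and doxycycline (dox), with circles for replicate 1, triangles for replicate 2 and bars for group means. TET2 and KMT2A are highest in the 2 induced S34F libraries, and IDH1 and IDH2 split by replicate number in every group with both replicates.

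The question behind the first comparison is what mutant U2AF1 does to these transcripts relative to added WT U2AF1. Induced S34F was first set against induced WT in edgeR's quasi-likelihood test without a term for replicate number. There 0 of the 10 genes passed an adjusted p of 0.05, where 1.67% of all tested genes did. In that test 2 of the 10 (TET2 and KMT2A) had an unadjusted p below 0.05, as did 4973 of the 21300 tested genes. DESeq2 called 1 of the 10, TET2. That 1 of 10 is read against the number of all genes that DESeq2 called, given below with the dependence on the processing. Libraries of like replicate number deviated together, though the labels do not say that the numbers pair them. With the number as a block 4 of the 10 passed: TET2 and KMT2A were higher, and IDH1 and IDH2 lower, in S34F cells. With the block 22.4% of all tested genes passed, and the 4 of 10 is read against that share. The libraries of the groups did not overlap for 4 of the 10 genes on the higher side and 3 on the lower side, against 28.9% and 27.3% of all tested genes.

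TET2, the methylcytosine dioxygenase, had 145 and 130 CPM in the induced S34F libraries, against 93.9 and 82.6 CPM in the induced WT libraries. Both S34F libraries were above all 8 other RNA libraries, whose values ran from 72.2 to 93.9 CPM. The S34F mean was 138 ± 10.4 CPM and the WT mean 88.3 ± 8.04 CPM (SD over 2 libraries each). The log2 fold change was 0.64 ± 0.17 (SE) with an adjusted p of 0.0853 in edgeR's quasi-likelihood test, and 0.64 ± 0.15 with an adjusted p of 0.0107 with the replicate block. Within replicate numbers the ratio was 1.54-fold for replicate 1 and 1.58-fold for replicate 2. Over 16 fits the adjusted p of TET2 ran from 0.00851 to 0.42, and the blocked call was lost when either induced WT library or the first induced S34F library was left out.

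KMT2A, the lysine methyltransferase that is rearranged in infant and therapy-related leukaemia, showed the same order. It had 611 and 533 CPM in the induced S34F libraries and 414 and 397 CPM in the induced WT libraries. Both S34F values were above all other RNA libraries, of which an uninduced WT library was highest at 502 CPM. The log2 fold change was 0.50 ± 0.17 (adjusted p = 0.144, edgeR) and 0.49 ± 0.13 with the replicate block (adjusted p = 0.021, edgeR). The adjusted p ran from 0.0112 to 0.515 over 16 fits, and in each of the 4 blocked fits that left out 1 library of the comparison KMT2A did not pass.

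IDH1, the cytosolic isocitrate dehydrogenase, had 39.8 and 74.9 CPM in the induced S34F libraries, against 71.8 and 208 CPM in the induced WT libraries. The groups overlapped, and replicate 2 was the higher library in both. Within replicate numbers S34F was 1.80-fold lower for replicate 1 and 2.78-fold lower for replicate 2. The log2 fold change was -1.29 ± 0.73 without the block (adjusted p = 0.321, edgeR) and -1.15 ± 0.18 with it (adjusted p = 0.00182, edgeR). The adjusted p ran from 9.13e-06 to 0.865 over 16 fits. IDH1 passed in all 4 blocked fits that left out 1 library.

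IDH2, the mitochondrial isocitrate dehydrogenase, had 99.5 and 151 CPM in induced S34F and 163 and 330 CPM in induced WT cells, so both S34F libraries were below both WT libraries. S34F was 1.63-fold lower within replicate 1 and 2.18-fold lower within replicate 2. The log2 fold change was -0.97 ± 0.45 without the block (adjusted p = 0.233, edgeR) and -0.92 ± 0.14 with it (adjusted p = 0.00178, edgeR). Its adjusted p ran from 0.000838 to 0.668 over 16 fits, and IDH2 passed in the same 4 blocked fits.

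The other 6 genes did not pass in S34F over WT in either edgeR fit. EZH2 had 71.1 and 47.9 CPM in induced S34F and 101 and 56.7 CPM in induced WT cells, lower within both replicate numbers, with overlapping groups and a log2 fold change of -0.40 ± 0.38 (adjusted p = 0.546, edgeR; 0.151 with the block), which turned to 0.07 without WT replicate 1. DNMT3A had 89.4 and 103 CPM in the S34F libraries and 105 and 126 CPM in the WT libraries, with a log2 fold change of -0.26 and a 95% interval of -0.66 to 0.14. ASXL1 (log2 fold change 0.25, interval -0.14 to 0.64) and PHF6 (0.21, -0.13 to 0.55) had both S34F libraries above both WT libraries. ASXL1 passed with the block when protein-coding genes alone were fitted (adjusted p = 0.0385, edgeR), and its adjusted p ran up to 0.869 over 16 fits. STAG2 had 209 and 214 CPM in S34F and 210 and 204 CPM in WT cells, a log2 fold change of 0.03 with an interval of -0.31 to 0.37. NPM1 had 1119 and 1187 CPM in S34F and 1224 and 1243 CPM in WT cells, a log2 fold change of -0.10 with an interval of -0.49 to 0.29, which changed sign to 0.05 when only protein-coding genes set the scaling. The median over the 10 genes was -0.03, beside 0.00 over all tested genes and -0.16 over the protein-coding genes tested.

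**Figure D2:**
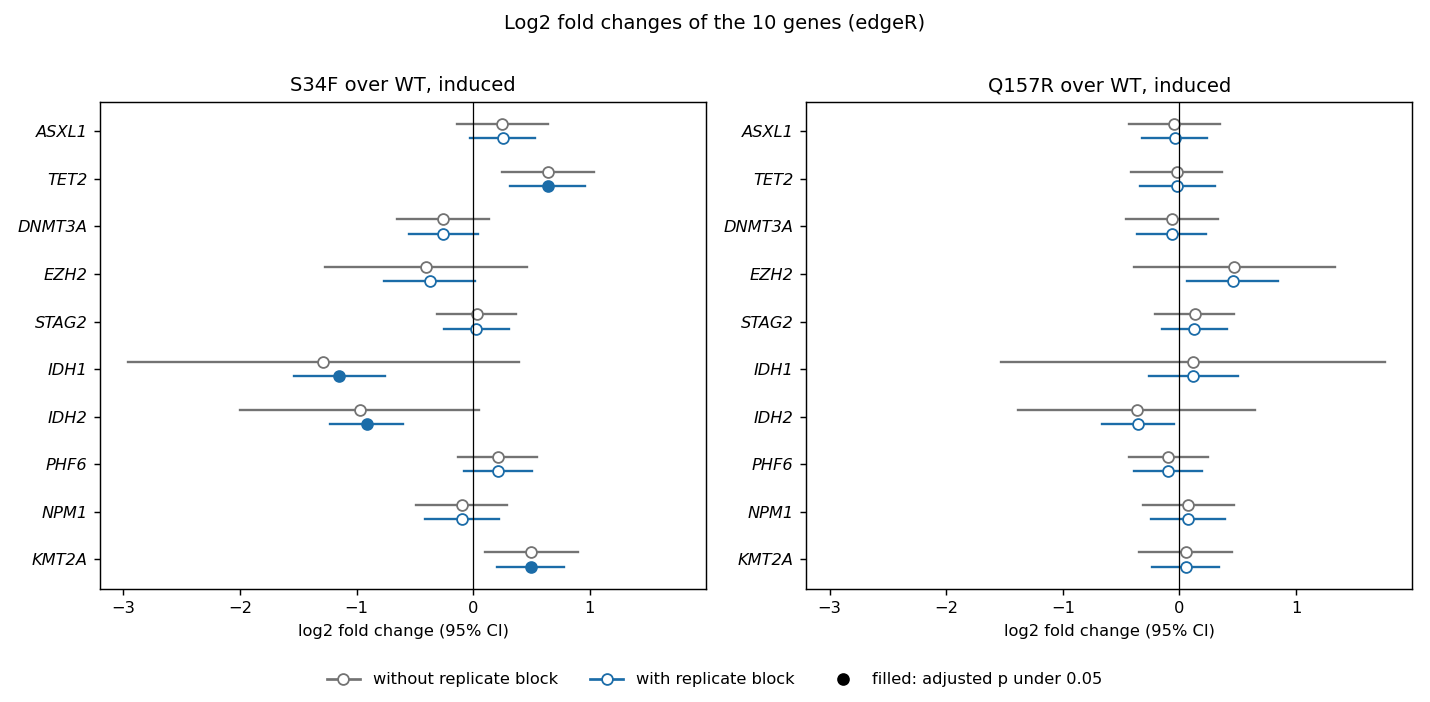
Log2 fold changes of the 10 genes for S34F over WT (left) and Q157R over WT (right) in induced cells, with 95% confidence intervals, from edgeR without (grey) and with (blue) the replicate block; filled points have an adjusted p under 0.05. TET2, KMT2A, IDH1 and IDH2 are filled for S34F with the block, and no point is filled for Q157R.

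Q157R over WT gave 0 of 10 calls in edgeR, without the block (0% of all tested genes called) and with it (0.0188%), and DESeq2 called 0 of 10 as well. At an unadjusted p under 0.05, 0 of the 10 genes passed without the block and 2 with it, EZH2 and IDH2. Of the 21300 tested genes, 716 did so without the block and 1770 with it. EZH2 had 145 and 73.7 CPM in induced Q157R against 101 and 56.7 CPM in induced WT cells, with a log2 fold change of 0.46 and an interval of 0.07 to 0.85 with the block (adjusted p = 0.521, edgeR). IDH2 had 129 and 253 CPM in Q157R against 163 and 330 CPM in WT cells, with a log2 fold change of -0.36 and an interval of -0.67 to -0.05 with the block (adjusted p = 0.521, edgeR). Without the block both signs turned when 1 library was left out, EZH2 to -0.09 without Q157R replicate 1, and IDH2 to 0.23 without WT replicate 2 and 0.04 without Q157R replicate 1. TET2 had 80.2 and 93.5 CPM in induced Q157R against 93.9 and 82.6 CPM in induced WT cells, and KMT2A 433 and 408 CPM against 414 and 397 CPM, so the Q157R values of both genes overlapped those of WT. Libraries did not overlap for 2 genes on the higher side (STAG2 and NPM1) and 1 on the lower side (PHF6), against 13% and 13.4% of all tested genes.

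The mutants were then set against each other. S34F over Q157R gave 0 of 10 calls without the block (0.559% of all tested genes called, 0.3% higher and 0.258% lower) and 5 of 10 with it (20%, 8.49% higher and 11.5% lower). Without the block 3 of the 10 had an unadjusted p under 0.05, as did 4587 of the 21300 tested genes. With the block, TET2 (log2 fold change 0.66 ± 0.15, adjusted p = 0.0111, edgeR) and KMT2A (0.44 ± 0.13, adjusted p = 0.0371, edgeR) were higher in S34F. EZH2 (-0.83 ± 0.18, adjusted p = 0.00976), IDH1 (-1.27 ± 0.18, adjusted p = 0.00153) and IDH2 (-0.56 ± 0.14, adjusted p = 0.0189) were lower in the same edgeR fit. DESeq2, without the block, called TET2 alone of the 10. The number of all genes that it called is given below with the dependence on the processing. With protein-coding genes alone and the block, ASXL1 and PHF6 passed too (adjusted p = 0.0396 and 0.0361, edgeR; up to 0.716 and 0.736 over 16 fits) and IDH2 did not. The WT comparison and this one share the S34F libraries, so their values are not independent of each other. Over 16 fits the adjusted p ran from 0.0101 to 0.455 for TET2, from 0.0208 to 0.601 for KMT2A, from 0.00642 to 0.711 for EZH2, from 1.05e-06 to 0.782 for IDH1 and from 0.0189 to 0.947 for IDH2. IDH1 passed in all 4 blocked fits that left out 1 library, TET2 in 2, EZH2 in 1, and KMT2A and IDH2 in 0.

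The libraries of replicate 2 differed from those of replicate 1 in ways that the groups do not explain, and 3 of the 10 genes passed the test of that difference. In the fit with the replicate block, the term for replicate 2 over replicate 1 passed for IDH1 (log2 difference 1.42 ± 0.13, adjusted p = 0.00012, edgeR), IDH2 (0.83 ± 0.10, adjusted p = 0.000589) and EZH2 (-0.64 ± 0.13, adjusted p = 0.00786), where 17.1% of all tested genes passed. IDH1 was higher in replicate 2 in 4 of 4 groups with both replicates, by 1.88-fold in induced S34F and by 3.25-fold in uninduced WT cells. IDH2 was higher in replicate 2 in 4 of 4 groups, by 1.52-fold to 2.03-fold. EZH2 was lower in replicate 2 in 4 of 4 groups, by 1.13-fold to 1.96-fold. The labels do not say what the replicate number stands for. The other 7 genes did not pass this term; their log2 differences between replicates in single groups lay between -0.35 and 0.26.

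**Figure D3:**
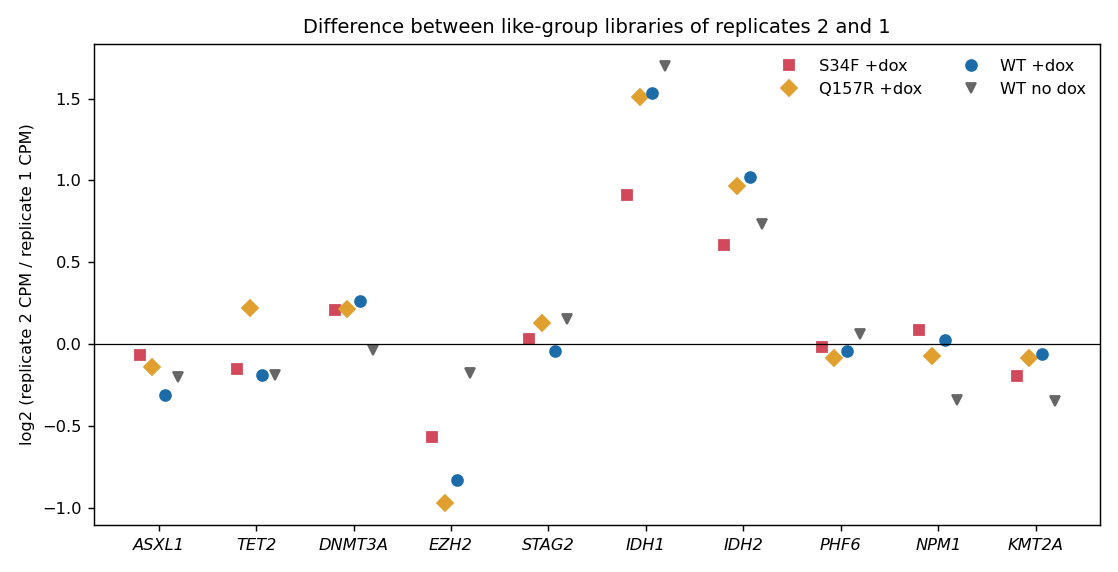
Log2 ratio of the CPM of replicate 2 to replicate 1 (vertical axis) for each gene in the 4 groups with both replicates (marker shapes). IDH1 and IDH2 lie above 0 and EZH2 below 0 in all 4 groups, and TET2, DNMT3A, STAG2, PHF6 and NPM1 fall on both sides of 0.

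Doxycycline with added WT U2AF1 gave the background for the induction comparisons. In it the drug and the added gene cannot be told apart. Induced over uninduced WT cells gave 0 of 10 calls without the block (0% of all tested genes) and with it (0.418%). DESeq2 called 0 of 10 as well. Of the 10 genes, 1 without the block and 4 with it had an unadjusted p under 0.05. Of the 21300 tested genes, 1363 without the block and 3227 with it did. The libraries of the groups did not overlap for TET2 on the higher side (17.8% of all tested genes) and for ASXL1, STAG2, PHF6 and NPM1 on the lower side (16.3%). TET2 had 93.9 and 82.6 CPM in induced WT and 82.3 and 72.2 CPM in uninduced WT cells. STAG2 had 210 and 204 CPM in induced WT and 250 and 279 CPM in uninduced WT cells. NPM1 had 1224 and 1243 CPM in induced WT and 1775 and 1404 CPM in uninduced WT cells.

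In the S34F line, induced over uninduced cells, with 1 uninduced library, gave 0 of 10 calls without the block (1.96% of all tested genes called, 0.704% higher and 1.26% lower) and 3 of 10 with it (19.2%, 8.23% higher and 11% lower). DESeq2 called 0 of 10. Without the block 1 gene of the 10, TET2, had an unadjusted p under 0.05, as did 5372 of the 21300 tested genes. TET2 had 145 and 130 CPM in induced and 88.8 CPM in uninduced S34F cells, a log2 fold change of 0.67 ± 0.19 with the block (adjusted p = 0.0312, edgeR) and 0.63 ± 0.21 without it (adjusted p = 0.127). IDH2 had 99.5 and 151 CPM in induced and 189 CPM in uninduced S34F cells, -1.03 ± 0.17 with the block (adjusted p = 0.0032, edgeR) and -0.59 ± 0.53 without it (adjusted p = 0.523). IDH1 had 39.8 and 74.9 CPM in induced and 66.8 CPM in uninduced S34F cells, which is replicate 1; the log2 fold change was -0.98 ± 0.22 with the block (adjusted p = 0.0111, edgeR) and -0.22 ± 0.87 without it (adjusted p = 0.898). Without induced S34F replicate 1 and without the block the sign of IDH1 turned to 0.16, a comparison of replicate 2 with replicate 1. EZH2 had 71.1 and 47.9 CPM in induced and 113 CPM in uninduced S34F cells, -0.64 ± 0.22 with the block (adjusted p = 0.0663, edgeR); it passed without a filter on low counts and with only the groups compared. Over 12 fits the adjusted p ran from 0.0211 to 0.36 for TET2, from 0.0108 to 0.549 for EZH2, from 0.0032 to 0.834 for IDH2 and from 0.0111 to 0.973 for IDH1. KMT2A had 611 and 533 CPM in induced and 472 CPM in uninduced S34F cells, 0.36 ± 0.17 with the block (adjusted p = 0.152, edgeR).

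Induction in the Q157R line was again tested with 1 uninduced library. It gave 0 of 10 calls in edgeR without the block (0% of all tested genes) and with it (0.263%, 0.146% higher and 0.117% lower). DESeq2 called 0 of 10. Of the 10 genes, 0 without the block and 1 with it had an unadjusted p under 0.05. Of the 21300 tested genes, 1888 without the block and 3021 with it did. Without a filter on low counts IDH1 was called, in a comparison of 78.8 and 224 CPM in induced with 67.6 CPM in uninduced Q157R cells, where the high library is replicate 2 and the uninduced one replicate 1.

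The difference of the inductions was tested directly as well. Induction in S34F minus induction in WT gave 0 of 10 calls without the block (0% of all tested genes) and 1 of 10 with it (0.704%). IDH2 was the gene called, with a log2 difference of -1.12 ± 0.22 with the block (adjusted p = 0.0481, edgeR) and -0.71 ± 0.69 without it (adjusted p = 0.795); its adjusted p ran from 0.0481 to 0.955 over 14 fits. IDH1 had -1.01 ± 0.28 with the block (adjusted p = 0.116, edgeR) and -0.21 ± 1.13 without it, and without the block its sign turned to 0.17 without induced S34F replicate 1, to 0.39 without uninduced WT replicate 1 and to 0.73 without induced WT replicate 2. Induction in Q157R minus induction in WT gave 0 of 10 calls without the block (0% of all tested genes) and with it (0.00469%), with DESeq2 at 0 of 10 and no gene of the 10 at an unadjusted p under 0.05 in either edgeR fit.

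Before induction, the lines gave 0 of 10 calls in S34F over WT and in Q157R over WT in edgeR (0% of all tested genes in both comparisons, with and without the block), in DESeq2, and at an unadjusted p under 0.05. Each mutant had 1 uninduced library, numbered replicate 1. IDH1 had 67.6 CPM in uninduced Q157R and 66.8 CPM in uninduced S34F cells, against 66.3 and 215 CPM in uninduced WT cells; the 66.3 CPM library is replicate 1. The log2 fold change of Q157R over WT was -1.06 ± 0.92 without the block and -0.12 ± 0.23 with it (adjusted p = 1 in both, edgeR), and without the block it turned to 0.03 without WT replicate 2.

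Beside the 10 genes, 10 lists of related genes were counted in S34F over WT in induced cells, where 0.681% and 0.991% of all tested genes were higher and lower without the block, and 9.56% and 12.9% with it. The median log2 fold change of all protein-coding genes tested was -0.16 without the block. Negative values and medians of the lists are read beside that, and the share of negative values over all genes was not counted. Genes named below because they passed with the block alone were chosen after their values were seen. Of 8 genes of DNA methylation and demethylation, 0 were higher and 1 lower without the block, and 1 was higher (TET2) and 3 lower with it, at a median log2 fold change of -0.31 without the block. The 1 gene lower without the block was DNMT1, the maintenance methyltransferase, with 182 ± 9.0 CPM in S34F and 504 ± 149 CPM in the WT libraries (SD over 2 libraries each, as below), a log2 fold change of -1.47 ± 0.27 (adjusted p = 0.0451, edgeR). It passed in 10 of 16 fits (adjusted p 3.7e-09 to 0.358), and in 0 of the fits without the block that left out 1 library. With the block, UHRF1, which brings DNMT1 to hemimethylated sites, and the thymine DNA glycosylase gene TDG passed too, so that 3 of the 4 calls of this list were lower while TET2 was higher. DNMT3A itself did not pass.

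Of 10 nucleolar genes including NPM1, 10 of 10 had a negative value without the block. Their median was -0.50, beside -0.16 over the protein-coding genes tested. In this list 1 gene passed without the block and 6 with it, all lower. NPM3, a paralogue of NPM1, had 23.7 ± 3.75 CPM in S34F and 49.7 ± 4.38 CPM in WT cells, a log2 fold change of -1.07 ± 0.18 (adjusted p = 0.0443, edgeR), and passed in 10 of 16 fits (adjusted p 0.000282 to 0.358), again in 0 of those that left out 1 library without the block. NPM1 had the value nearest 0 of the list, and its sign depends on the scaling as given above. Of 11 isocitrate dehydrogenase and 2-oxoglutarate genes, 10 had a negative value, with a median of -0.46; 0 passed without the block and 6 with it, all lower, among them IDH1, IDH2 and GLUD1, the mitochondrial glutamate dehydrogenase, at 79.5 ± 16.3 CPM in S34F and 150 ± 54.8 CPM in WT cells. GLUD1 passed in 7 of 16 fits (adjusted p 0.00197 to 0.508). ACO1, the cytosolic aconitase, had 100.4 ± 10.3 CPM in S34F and 123 ± 21.4 CPM in WT cells and did not pass in any of 16 fits.

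The lists around the other genes had 0 calls without the block. In Polycomb repressive complex 2, 0 of 11 were higher and 3 lower with the block (RBBP4, RBBP7 and SUZ12), at a median of -0.39 without it; RBBP4, a histone chaperone, had 445 ± 34.7 CPM in S34F and 603 ± 19.9 CPM in WT cells, and MTF2, an accessory subunit, had 97.7 ± 1.23 CPM and 128 ± 5.03 CPM and did not pass. Of 15 cohesin genes, NIPBL, the loader, was higher and SMC1A, a ring subunit, lower with the block; RAD21, the kleisin subunit, had 509 ± 19.7 CPM in S34F and 522 ± 116 CPM in WT cells, and PDS5A 216 ± 7.97 CPM and 272 ± 31.7 CPM, and neither passed. Of 11 genes of the ASXL and BAP1 deubiquitinase, MBD5 was higher and HCFC1 lower with the block; HCFC1 had 400.4 ± 7.32 CPM in S34F and 573 ± 98.9 CPM in WT cells, and OGT, the O-GlcNAc transferase, 374 ± 14.2 CPM and 330 ± 25.8 CPM. Of 18 genes of the KMT2 complexes, KMT2A and KMT2C, both catalytic subunits, were higher with the block, and 6 were lower: the core subunits WDR5, RBBP5, ASH2L and DPY30, menin (MEN1) and PSIP1. PSIP1, which tethers menin and KMT2A to chromatin, had 451 ± 92.9 CPM in S34F and 761 ± 309 CPM in WT cells, and KMT2D 686 ± 59.9 CPM and 673 ± 12.7 CPM. These calls rest on few fits: of 16, RBBP4 passed in 1 (adjusted p 0.0377 to 0.524), HCFC1 in 2 (0.023 to 0.497) and PSIP1 in 5 (0.00695 to 0.738).

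Of 8 KMT2A target genes of leukaemia, 7 were tested and 1, HOXA10, was lower with the block; CDK6 had 389.9 ± 10.2 CPM in S34F and 464 ± 62.5 CPM in WT cells, and MEF2C 389 ± 73.8 CPM and 501 ± 30.9 CPM. Of 14 genes of PHF6 and NuRD, 0 were higher and 5 lower with the block, among them CHD4, the remodelling ATPase, at 1043 ± 7.48 CPM in S34F and 1479 ± 53.6 CPM in WT cells; PHF6 was not one of them. CHD4 passed in 1 of 16 fits, the one with the block and all genes and libraries (adjusted p 0.0188 to 0.432). Of 27 other recurrently mutated myeloid genes, 25 were tested, of which 1 was higher with the block, the receptor tyrosine kinase gene KIT, and 5 lower (RUNX1, PRPF8, PTPN11, DDX41 and WT1). CALR had 637 ± 160 CPM in S34F and 922 ± 438 CPM in WT cells, and GATA2 710.1 ± 173 CPM and 922 ± 377 CPM. In Q157R over WT, 0 genes of the 10 lists passed in either direction in edgeR, with or without the block.

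**Figure D4:**
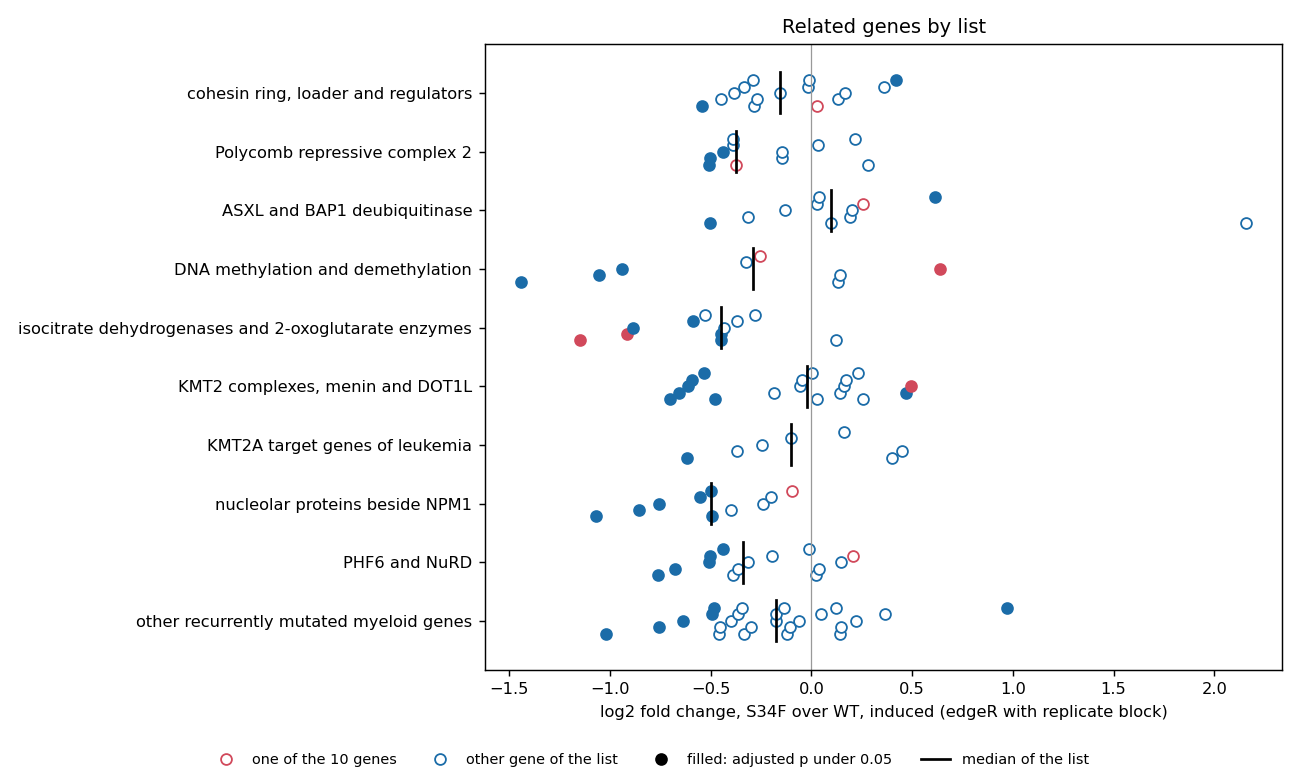
Log2 fold changes of S34F over WT in induced cells (horizontal axis, edgeR with the replicate block) for the tested genes of the 10 lists (rows), with the 10 genes in red, other genes in blue, filled points at an adjusted p under 0.05 and black bars at list medians. The nucleolar and isocitrate dehydrogenase lists lie mostly below 0, and the point at 2.16 is ASXL3, at 0.0164 CPM in S34F and 0 CPM in WT cells.

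Among the 10 genes, log2 CPM over the 10 RNA libraries went together most for IDH1 and IDH2 (Pearson r = 0.91), DNMT3A and IDH2 (0.88), ASXL1 and PHF6 (0.83), and TET2 and KMT2A (0.78), and went apart most for IDH1 and KMT2A (-0.79). These values are descriptions over libraries that share groups and replicate numbers. Of 9733 protein-coding genes with a mean log2 CPM of at least 3, those most like TET2 were KMT2E (r = 0.98) and DACH1 (0.97), and those most like KMT2A were YTHDC1 (0.97) and IGF1R (0.96). MTHFD2 (0.99) and WARS (0.99) were most like IDH1, SNAPC2 (0.99) and TMEM143 (0.99) most like IDH2, and WDR75 (0.98) and REV1 (0.98) most like EZH2. ASXL1 was most like DNAJC13 (0.98) and MRTFB (0.97), and NPM1 like IPO8 (0.98) and APPL1 (0.97). DNMT3A had r = 0.97 with SPATC1L. The highest values were lower for STAG2, with WRN (0.94) and HNRNPH3 (0.93), and for PHF6, with GABPB1 (0.96) and ZDHHC14 (0.95).

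Crosslinked reads were few for most of the 10 genes. eCLIP libraries held 306711 to 1148212 gene-assigned counts and freCLIP libraries 38415 to 730996. No size-matched input was used here, so a CPM value is a level in the library and not an enrichment, and counting error alone sets the limits given. In U2AF1 eCLIP of induced WT cells TET2 had 164 counts in biological replicate 1, summed over 2 libraries, and 50 in replicate 2, or 74.9 and 163 CPM. That was above 93.7% of 13602 protein-coding genes tested in RNA-seq, by mean CPM not divided by length. The ratio of U2AF1 eCLIP CPM to induced WT RNA CPM was 1.35 for TET2, above 77% of those genes, whose median was 0.128. The other 9 genes had 0 to 22.8 CPM in either replicate and ratios of 0.00999 to 0.0922, all below the median.

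U2AF2 eCLIP gave the same leading gene. TET2 had 66 counts in each replicate, or 46.0 and 64.4 CPM, with a ratio to RNA of 0.626, above 66.2% of the genes, whose median was 0.172. ASXL1 came next by the mean, with 5.58 and 14.6 CPM. NPM1, which has the highest RNA level, had 5 and 2 counts, and its ratio of 0.0022 was above 6.26% of the genes. EZH2 and IDH1 had 30 and 27 counts in U2AF1 eCLIP replicate 1 and 0 counts in replicate 2, the shallowest eCLIP library.

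**Figure D5:**
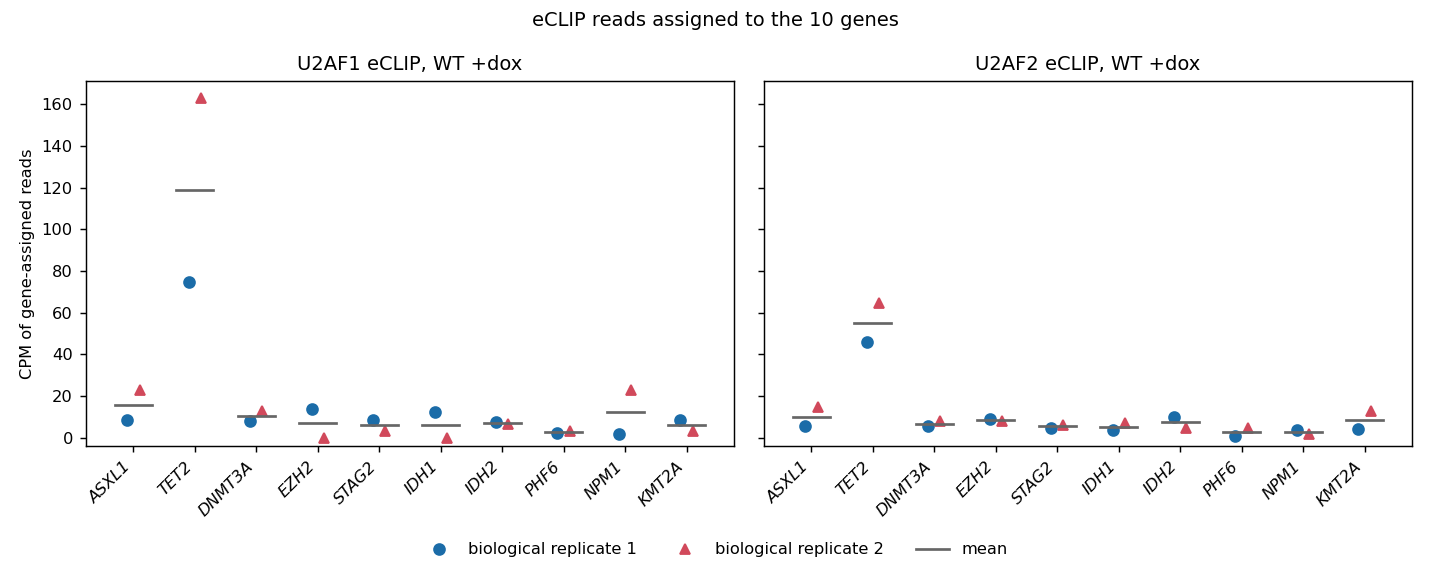
CPM of gene-assigned reads for the 10 genes in U2AF1 (left) and U2AF2 (right) eCLIP of induced WT cells, with circles and triangles for biological replicates 1 and 2 and bars for their means. TET2 lies at 74.9 and 163 CPM for U2AF1 and 46.0 and 64.4 CPM for U2AF2, above the other 9 genes in each replicate.

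In freCLIP, TET2 was the gene of the 10 that passed the filter on low counts, and the only one with counts in all 9 heavy libraries. The heavy fraction held 166.6, 32.2 and 80.8 CPM of TET2 in S34F, 63.6 and 123 CPM in Q157R, and 37.3, 104, 106 and 88.3 CPM in the WT libraries, so the groups overlapped. The log2 fold changes were 0.15 for S34F and 0.17 for Q157R over WT, with 95% intervals of -1.63 to 1.94 and -1.86 to 2.20 (adjusted p = 1 for both, edgeR; 0.132% and 0% of 6833 tested genes called). The sign of each turned when 1 library was left out, to -0.53 without S34F replicate 1 and -0.04 without WT replicate 1 for S34F, and to -0.41 without Q157R replicate 3 and -0.05 without WT replicate 1 for Q157R. The light fraction held 54.7, 85.0 and 30.6 CPM of TET2 in S34F, 41.2 and 0 CPM in Q157R, and 108, 65.2 and 178 CPM in the WT libraries. S34F over WT was -1.11 with an interval of -3.17 to 0.95 (adjusted p = 0.687, edgeR; 0.337% of tested genes called). Q157R over WT was -2.96 with an interval of -5.89 to -0.04 (adjusted p = 0.158, edgeR; 7.6% called), where the median of all tested genes was -1.19 and the 2 Q157R libraries held 2 and 0 TET2 counts. It passed without Q157R replicate 2, which left the library with 0 counts (adjusted p = 0.0382, edgeR; 0.0382 to 0.544 over its fits). Fitted values of this size at so few counts depend on the prior count and are no bound.

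The remaining 9 genes had too few freCLIP counts for a test. ASXL1 had 12 counts in S34F, 0 in Q157R and 2 in WT light libraries, and 7 in S34F, 9 in Q157R and 21 in WT heavy libraries, summed over each group. DNMT3A had counts in 7 of 8 light and 7 of 9 heavy libraries, 1 to 6 at a time. IDH2 had 0 counts in 8 of 8 light libraries and counts in 7 of 9 heavy ones, with 27 in S34F, 6 in Q157R and 23 in WT heavy libraries summed over each group, or 26.7, 12.2 and 14.5 CPM. EZH2 had 0 counts in all 8 light libraries, which at 3 counts of the summed depth allows up to 7.45 CPM in S34F, 17.2 CPM in Q157R and 5.21 CPM in the WT light libraries. IDH1 had 19 counts in 1 S34F light library and 0 in the other 7 light libraries. KMT2A had 25 counts in 1 Q157R heavy library and at most 3 in any other library, and STAG2 had 35 counts in 1 WT heavy library and 0 in the other 3 WT heavy libraries. PHF6 and NPM1 had at most 4 counts in any freCLIP library.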

How the data were processed

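RNA-seq (10 libraries), eCLIP (7) and freCLIP (17) were used, and 9 further samples were not analysed here. The deposited tables hold whole-number counts of reads per gene. Per the submitters' processing notes, the tools were STAR 2.5.3a and 2.7.0f, HISAT2, HTSeq, SAMtools, cutadapt, DESeq2 and edgeR, with the build GRCh38.p10; the strand setting and annotation release were not given in the sources used here. Rows that name no gene, 18.97% to 33.66% of RNA reads for the no-feature row alone, were left out. Symbols, lengths and exon starts came from GENCODE 29, which matched 58039 of 58347 rows.

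Counts were tested with edgeR 4.0.16 in R 4.3.3 (robust quasi-likelihood F test, TMM scaling, filterByExpr with a minimum count of 10, 1 mean per group, all libraries of an assay in 1 fit), with Benjamini-Hochberg adjustment over all tested genes and a threshold of 0.05. The fits were tested on simulated data. Groups and replicate numbers came from the labels. Like-numbered RNA libraries deviated together in each of the 6 pairs of groups with both numbers (residual r 0.2111 to 0.6516, all over 0.1). With 2 libraries a group both numbers give the same r, and the 6 pairs share groups, so these values are not independent. The labels do not say that the numbers pair the libraries. The fit with a replicate block is given beside the fit without it where it changes a call. Alternatives were DESeq2 1.42.0, RLE scaling, no filter, protein-coding genes only, only the groups compared, and each library left out. CPM are TMM-scaled for RNA and for single freCLIP libraries and plain for eCLIP and summed freCLIP; RPKM use merged exons. Libraries of 1 eCLIP replicate were summed. Intervals of log2 fold changes come from the edgeR fit and include its estimate of the spread between libraries. Floors (3 counts) cover counting error only.

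Named were all 10 genes, up to 3 called genes of each related list for S34F over WT (otherwise the 2 highest in mean CPM), and the 2 genes most like each of the 10. For DNMT3A, 1 of these is not reported here. The 10 genes and the lists were chosen with earlier results of these data known.

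Some NPM1 reads may be shared with its 45 annotated pseudogenes, which held 1.58% to 2.18% of the NPM1 count. Overlapping genes in the table held at most 1.07% of a gene's count.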

Additional observations from a re-analysis of the deposited data

Results flagged for a closer look

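Induction of IDH2 passed a direct test between lines in the fit with the replicate block. There S34F minus WT was -1.12 on the log2 scale (adjusted p = 0.0481, edgeR, with a range of 0.0481 to 0.955 over 14 fits). Without the block the difference was -0.71 and did not pass. Other differences are listed because every induced library of one line moved one way and every induced library of the other line the opposite way. For S34F minus WT these were PHF6 (0.263, log2) and KMT2A (0.419), which did not pass the direct test (adjusted p 0.316 to 1 and 0.192 to 1 over 14 fits, edgeR and DESeq2). For S34F minus Q157R they were IDH2 (-1.14), PHF6 (0.437) and KMT2A (0.372), and these differences were not tested. Each mutant has 1 uninduced library, numbered replicate 1. For IDH2 in Q157R the induced libraries stood 0.03 (replicate 1) and 1.00 (replicate 2) above it on the log2 scale. IDH2 was higher in replicate 2 in 4 of 4 groups with both replicates, and the part of that difference in the -1.14 was not tested.

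In the 4 WT heavy freCLIP libraries 1 library stood far from the other 3 for STAG2, IDH1 and NPM1, with a gap of 1, 0.838 and 1 of the whole range. STAG2 had 35 counts and NPM1 4 counts in 1 library and 0 in the others. IDH1 had 5 counts in 1 library and at most 1 in the others. The rule takes such a gap to arise by chance in about 1 of 20 groups, and 9 were examined. That rate is not made for counts this few, many of them 0, in libraries of unlike depth. The number of genes flagged is therefore not read against it.

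eCLIP was made in induced WT cells alone, with no control sample, and gave levels above the limit that a count of 0 allows. For U2AF1 these were 15.8 CPM for ASXL1, 119 CPM for TET2, 10.6 CPM for DNMT3A and 12.3 CPM for NPM1. Replicates 1 and 2 of U2AF1 had 8.68 and 22.8 CPM of ASXL1, 8.22 and 13.04 CPM of DNMT3A, and 1.83 and 22.8 CPM of NPM1, the last from 4 and 7 counts. For U2AF2 they were 10.1 CPM for ASXL1, 55.2 CPM for TET2, 6.69 CPM for DNMT3A, 8.44 CPM for EZH2, 5.37 CPM for STAG2, 5.16 CPM for IDH1, 7.32 CPM for IDH2 and 8.44 CPM for KMT2A.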

How the results depend on the processing

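Counts of called genes moved with the settings. S34F over WT in induced RNA called 356 genes, against 4779 with the replicate block, 1659 with DESeq2, 2410 without a filter, 128 with protein-coding genes alone, 3395 with those and the block, and 0 with only the groups compared. S34F over Q157R called 119, and in the same order 4261, 1332, 2135, 58, 3057 and 0. Induction in S34F called 418, and in the same order 4099, 1851, 2992, 148, 2848 and 4221. Q157R over WT called 0, against 4 with the block, 3 with DESeq2, 15 without a filter and 3 with protein-coding genes and the block. Induction in WT called 0, and in that order 89, 33, 130 and 28. Induction in Q157R called 0, and in that order 56, 74, 569 and 16, and 2 with only the groups compared. Before induction, S34F over WT and Q157R over WT called 0, and 63 and 119 without a filter. Induction in S34F minus WT called 0, against 150 with the block, 27 with DESeq2 and 306 without a filter; induction in Q157R minus WT called 0, against 1 with the block and 44 without a filter. RLE scaling moved no count of calls by over 1.5 times in the RNA comparisons.

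Of the 10 genes, S34F over WT called 0, against 4 with the block, 1 with DESeq2, 2 without a filter and 5 with protein-coding genes and the block; S34F over Q157R called 0, and in that order 5, 1, 2 and 6. Induction in S34F called 0, against 3 with the block, 1 without a filter, 3 with protein-coding genes and the block, and 2 with only the groups compared. Its difference from WT called 0, and 1 with the block. Leaving out 1 library at a time without the block gave 0 calls over all genes in each RNA comparison. Leaving libraries out with the block was added after seeing the data and gave 1222 and 2742 (without S34F replicates 1 and 2) and 1164 and 1177 (without WT replicates 1 and 2) for S34F over WT, 1 to 2 for Q157R over WT, 893 and 2332 (without S34F replicates 1 and 2) and 1030 and 2675 (without Q157R replicates 1 and 2) for S34F over Q157R and 640 to 3634 for induction in S34F, and 2 to 3, 0, 1 to 3 and 2 to 3 of the 10 genes. The fit of protein-coding genes with the block was also chosen after seeing the data.

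Light freCLIP called 23 genes for S34F, against 145 with DESeq2, 11 without a filter and 6 with that fraction alone, and 6 to 35 with 1 library left out. Light freCLIP for Q157R called 519, against 333 with the replicate block, 833, 263 and 33 in the same order, and 105 to 1148. Heavy freCLIP for S34F called 9, against 17 with the block, 43, 1 and 161, and 0 to 2. The freCLIP replicate numbers do not pair the libraries, with 6 of 34 pairs over 0.1. Without light Q157R replicate 2, which leaves a library with 0 TET2 counts, TET2 was called (adjusted p = 0.0382, edgeR; 0.0382 to 0.544 over 11 fits).

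Signs changed as follows, in log2, with the range over fits that left out 1 library where one of those changed. In S34F over WT, EZH2 ran from -0.780 to 0.070 (above 0 without WT replicate 1), STAG2 from -0.014 to 0.049 and, with the block, down to -0.064 (both below 0 without WT replicate 2). NPM1 was 0.045 with protein-coding genes alone, 0.046 with the block too, and 0.0079 with the block without S34F replicate 1. RAD21 ran from -0.247 to 0.188 (above 0 without WT replicate 2, and 0.0025 without S34F replicate 1); it was 0.105 with protein-coding genes alone, 0.129 with the block too, and with the block 0.162 without S34F replicate 2 and 0.038 without WT replicate 2. OGT was -0.113 and KMT2D -0.041 with the block without S34F replicate 1, and KMT2D ran from -0.064 to 0.115 (below 0 without S34F replicate 1, and -0.013 without WT replicate 2). CALR ran from -0.974 to 0.055 (above 0 without WT replicate 1) and GATA2 from -0.743 to 0.093 (above 0 without WT replicate 2). In Q157R over WT, EZH2 ran from -0.094 to 0.944 (below 0 without Q157R replicate 1) and IDH2 from -0.917 to 0.230 (above 0 without WT replicate 2, and 0.039 without Q157R replicate 1). For induction in S34F, IDH1 ran from -0.747 to 0.164 (above 0 without S34F replicate 1). For its difference from WT, IDH1 ran from -1.298 to 0.730, and was 0.173 without S34F replicate 1, 0.386 without uninduced WT replicate 1 and 0.730 without induced WT replicate 2. Before induction IDH1 in Q157R over WT ran from -1.671 to 0.029 (above 0 without WT replicate 2). Heavy freCLIP TET2 for S34F ran from -0.532 to 0.536, and was -0.532 without S34F replicate 1 and -0.036 without WT replicate 1. For Q157R it ran from -0.408 to 0.545, and was -0.408 without Q157R replicate 3 and -0.046 without WT replicate 1. The cause of these changes was not tested.

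The printed log2 changes of the 10 genes were chosen after values were seen: they cover 29 gene and comparison pairs, with 18 sign changes in 10 pairs over 389 alternative values, whereas all 104 pairs had 91 sign changes in 44 pairs over 1244 values. Of 653 alternative values of single genes, 529 kept their direction and side of the threshold, 74 gained and 12 lost a call, 30 changed sign and 8 levels moved. Those 8 are levels per length, which moved when the longest transcript replaced the merged exons. With 2 libraries a group, and 1 in each uninduced mutant group, the RNA comparisons rest on few libraries, and freCLIP depth limits all genes but TET2.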
